A study of Arabidopsis thaliana with 15 samples.

Results

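The ARGONAUTE (AGO) genes of Arabidopsis thaliana and miR168 were followed in leaves of prp4k3 plants and of Col-0, the wild-type accession. The members were chosen by name: 9 AGO genes, AGO1 to AGO6 and AGO8 to AGO10, among 73194 rows of the RNA-seq table, and ath-miR168a-5p among 427 rows of the small RNA table. AGO7 was not among the members, so counts and shares below leave it out. All 10 members were found. The plants were untreated and 3 weeks old, and prp4k3 is described in the series' design text as a line with an artificial microRNA, amiR-PRP4K3. Neither the promoter of that construct nor the number of lines is given in these sources. Each genotype had 3 libraries of total RNA (stranded kit) and 3 small RNA libraries, so 12 libraries were compared, and 3 further RNA-seq samples of se-2 were not analysed here.

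AGO proteins hold a small RNA as a guide and cut or silence RNA or DNA that pairs with it. AGO1 carries most plant miRNAs. Its own mRNA is a target of miR168, which AGO1 itself loads, so the pair forms a feedback loop. AGO2 is an antiviral and antibacterial Argonaute whose mRNA is a target of miR403, while AGO4, AGO6 and AGO9 guide DNA methylation with siRNAs made from transposons and repeats.

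RNA-seq totals lay between 16041754 and 19344157 counts, and small RNA totals between 305617 and 1156591, with prp4k3 the shallower genotype in both assays. Levels are CPM, read counts scaled to library size, here corrected by TMM, a method that takes most features to be unchanged. Values after ± are SDs over 3 libraries for levels and standard errors for log2 fold changes, which are prp4k3 against Col-0. Calls required a p under 0.05 in edgeR's quasi-likelihood test after Benjamini-Hochberg adjustment. With library totals as the scale, the 18609 tested RNA-seq features had a median log2 fold change of 0.86 in place of 0.02, so levels below are relative to the TMM scale and the other scaling is given where it matters. The TMM factors were 0.737 to 0.762 in Col-0 and 1.32 to 1.35 in prp4k3. With TMM 65.8% of the tested features were called, and whether its assumption holds here was not tested. The kinase gene PRP4KA (AT3G25840) fell by 0.68 on the log2 TMM scale (adjusted p = 0.00116 in edgeR's quasi-likelihood test) and lay at 0.16 by total counts (adjusted p = 0.28). PRP4KB (AT1G13350) lay at -0.41 (adjusted p = 0.0646) and, by total counts, at 0.43 (adjusted p = 0.0413), and PRP4KC (AT3G53640) had 0 counts in every library. The leaf markers RBCS1A, RCA and LHCB3 together held 27070 to 32202 CPM in Col-0 and 10620 to 10861 CPM in prp4k3. Their log2 fold changes were -1.59, -0.99 and -1.76 with TMM, and -0.75, -0.15 and -0.92 by total counts. RCA was not called on the latter scale (adjusted p = 0.284 in edgeR's quasi-likelihood test), so the size of this fall depends on the scaling. In bulk leaf RNA, fewer cells of a type and less RNA per cell cannot be told apart. In small RNA, the library prp4k3 replicate 2 stood apart. Its features deviated from the mean of the other prp4k3 libraries by a median of 0.478 log2 units, against 0.140 to 0.325 for the remaining 5 libraries. Small RNA fold changes are therefore given with and without prp4k3 replicate 2.

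Across the 9 AGO genes, AGO2, AGO3 and AGO10 rose in prp4k3, AGO1, AGO4 and AGO6 were not called, and AGO5, AGO8 and AGO9 had too few counts for the test. Of the 9 genes, 6 passed the filter on low counts. Of these, 3 were called higher and 0 lower. Higher calls made up 33.9% of all tested features and lower calls 31.9%, so the number of called AGO genes alone says little about these genes. The median log2 fold change of the 6 tested genes was 0.34, beside 0.02 over all features. By total counts 5 of the 6 were higher and 0 lower, where 76.9% of all features were called, 67.1% higher and 9.81% lower.

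**Figure D1:**
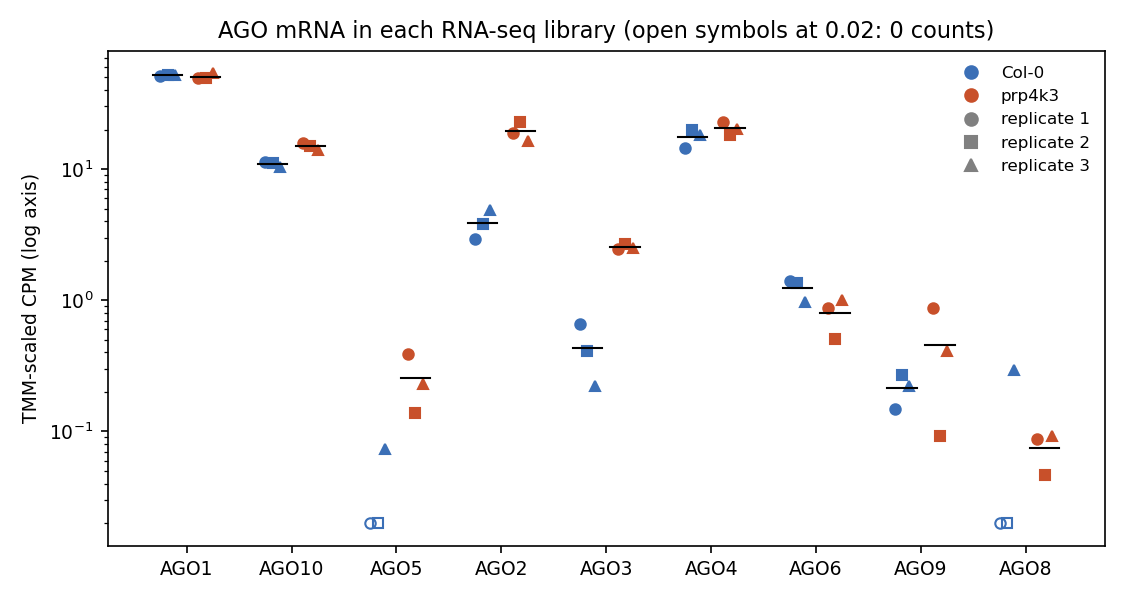
TMM-scaled CPM (log axis) of the 9 AGO genes in each of the 6 RNA-seq libraries, Col-0 in blue and prp4k3 in orange, with a symbol for each replicate and a bar at the group mean where no library had 0 counts. AGO2 and AGO3 lie far higher in prp4k3, AGO10 somewhat higher, and AGO1 near 50.7 to 52.2 CPM in both genotypes, while open symbols at 0.02 mark libraries with 0 counts.

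AGO1 (AT1G48410), the main miRNA effector, changed least among the tested members with TMM scaling. It stood at 51.7, 52.5 and 52.6 CPM in the Col-0 libraries and at 49.1, 49.3 and 53.8 CPM in the prp4k3 libraries. The groups overlapped, and their means of 52.2 ± 0.506 and 50.7 ± 2.65 CPM differed by less than the spread in prp4k3. The log2 fold change was -0.04 ± 0.10 by edgeR's quasi-likelihood test (adjusted p = 0.716), with a 95% interval from -0.26 to 0.18. By total counts AGO1 was called higher, at 0.80 ± 0.10 (adjusted p = 4.39e-05), which is 0.06 below the median of all features on that scale. Under both scalings AGO1 thus lay within 0.06 of the median feature.

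AGO10 (AT5G43810), also called ZWILLE or PINHEAD, is the closest relative of AGO1 and is known for sequestering miR165 and miR166 away from it in the meristem and vasculature. It stood at 11.3, 11.1 and 10.4 CPM in Col-0 and at 15.8, 15.1 and 13.9 CPM in prp4k3. Every prp4k3 library lay above every Col-0 library, as was the case in one direction or the other for 70.5% of all tested features. The rise was 0.45 ± 0.11 on the log2 scale (adjusted p = 0.00605 in edgeR's quasi-likelihood test), from 10.9 ± 0.480 to 14.9 ± 0.974 CPM. It was 1.30 ± 0.12 by total counts. Vascular marker genes SUC2, PXY and IRX3 together stood at 45.6 to 52.1 CPM in Col-0 and 50.1 to 64.9 CPM in prp4k3. Of the 3, 1 (PXY) was called higher, near the 33.9% of all tested features called higher. By total counts all 3 were higher, beside 67.1% of all features. The part of vascular tissue in the AGO10 value was not tested.

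AGO5 (AT2G27880), the third member of this clade, is known from reproductive tissue. It had 0, 0 and 1 counts in the Col-0 libraries and 9, 3 and 5 in the prp4k3 libraries. The prp4k3 libraries were all above the Col-0 libraries, but at 17 counts against 1 the gene did not pass the filter. The ratio of scaled counts was 10.7 with an exact 95% interval of 1.68 to 448, which covers counting error only, and 19.2 (3.01 to 803) by total counts. Fitted without the filter, where 24.4% of features were called higher, AGO5 passed by edgeR's quasi-likelihood test (adjusted p = 0.0219) and it did not pass in DESeq2 (adjusted p = 0.0657).

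AGO2 (AT1G31280) showed the clearest rise among the abundant members. It stood at 2.95, 3.80 and 4.89 CPM in Col-0 and at 18.9, 23.0 and 16.5 CPM in prp4k3. The groups were far apart, with the lowest prp4k3 library at 16.5 CPM and the highest Col-0 library at 4.89 CPM. The log2 fold change was 2.32 ± 0.20 by edgeR's quasi-likelihood test (adjusted p = 7.79e-06, 95% interval 1.88 to 2.77), from 3.88 ± 0.971 to 19.5 ± 3.26 CPM. By total counts it was 3.17 ± 0.20.

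AGO3 (AT1G31290), the tandem neighbour and closest paralog of AGO2, rose by a like amount from a much lower count. It had 9, 6 and 3 counts in Col-0 and 56, 58 and 55 in prp4k3, or 0.431 ± 0.222 and 2.55 ± 0.129 CPM. The groups did not overlap, and the spread in counts was wide in Col-0 and narrow in prp4k3. The log2 fold change was 2.55 ± 0.31 by edgeR's quasi-likelihood test (adjusted p = 7.14e-05, 95% interval 1.87 to 3.27), and 3.38 ± 0.30 by total counts. Reads from stretches that both paralogs share could be assigned to either or lost, so how the counts divide between these genes is uncertain.

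**Figure D2:**
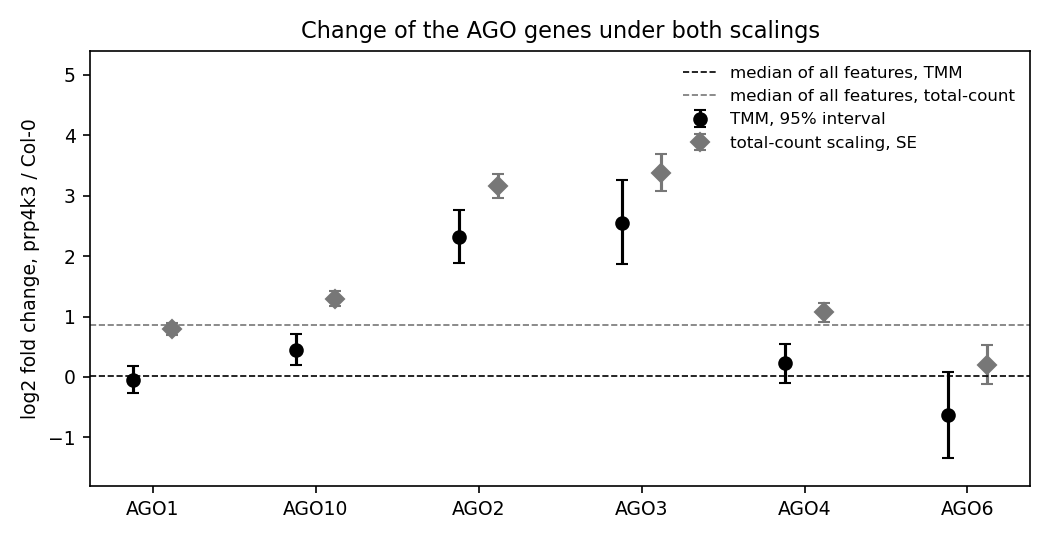
Log2 fold change of the 6 tested AGO genes, prp4k3 over Col-0, with TMM scaling (black, bars are 95% intervals) and total-count scaling (grey, bars are standard errors), and dashed lines at the median of all 18609 features, 0.02 and 0.86. AGO1 and AGO4 lie near the dashed line of their scaling, while AGO2 and AGO3 lie far above it.

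Of AGO4, AGO6 and AGO9, which act in DNA methylation, AGO4 and AGO6 were not called with TMM scaling, and AGO9 was not tested. AGO4 (AT2G27040), the main effector of RNA-directed DNA methylation, stood at 14.5, 19.7 and 18.2 CPM in Col-0 and at 23.0, 18.1 and 20.4 CPM in prp4k3. The groups overlapped. Its log2 fold change of 0.23 ± 0.14 was not called by edgeR's quasi-likelihood test (adjusted p = 0.189, 95% interval -0.10 to 0.55). By total counts it was called at 1.07 ± 0.15 (adjusted p = 0.000101), 0.21 above the median of all features there.

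AGO6 (AT2G32940), a partner of AGO4 in DNA methylation, stood at 1.40, 1.36 and 0.963 CPM in Col-0 and at 0.873, 0.511 and 1.01 CPM in prp4k3. The highest prp4k3 library passed the lowest Col-0 library. The log2 fold change was -0.63 ± 0.32 (adjusted p = 0.103 in edgeR's quasi-likelihood test, 95% interval -1.35 to 0.07), and it lay at 0.20 ± 0.32 by total counts (adjusted p = 0.573). The value rests on totals of 52 and 53 counts.

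AGO9 (AT5G21150), known from ovules, where it acts in companion cells of the female germline, had 2, 4 and 3 counts in Col-0 and 20, 2 and 9 in prp4k3. Its prp4k3 libraries lay both below and above the Col-0 range. AGO8 (AT5G21030), which is often described as barely expressed, had 0, 0 and 4 counts in Col-0 and 2, 1 and 2 in prp4k3. For AGO9 the ratio of scaled counts was 2.17 (1.01 to 5.19), or 3.89 (1.81 to 9.30) by total counts, and without the filter neither AGO9 (adjusted p = 0.19) nor AGO8 (adjusted p = 0.846) passed in edgeR's quasi-likelihood test.

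Counts of floral identity genes were read beside the rare reproductive members, and PI and AP3 were singled out after their values were seen. PI, a petal and stamen identity gene, had 2, 2 and 0 counts in Col-0 and 66, 9 and 20 in prp4k3. AP3, its partner, had 1 count in all in Col-0 and 32, 5 and 13 in prp4k3. The order of the prp4k3 libraries, with replicate 1 highest and replicate 2 lowest, was the same for PI, AP3, AGO5 and AGO9, though in AGO5 it rests on 9, 3 and 5 counts. How many of all features share this order was not counted, so no link to floral tissue is drawn from it. Among the other shoot apex and flower markers, AP1 and AG had this order too. STM and KNAT1 instead had replicate 3 lowest in CPM, and WUS, at 3, 1 and 1 counts, was tied in replicates 2 and 3. Of all 8 shoot apex and flower markers 3 were tested. AP1 and KNAT1 were called higher, while STM, a meristem gene, was called lower at -0.96 and lay at -0.11 by total counts. Over all tested features 33.9% were called higher and 31.9% lower. AG, a stamen and carpel identity gene, had a ratio of scaled counts of 1.47 (0.829 to 2.72). The 8 together held 8.12 to 11.4 CPM in Col-0 and 8.97 to 19.0 CPM in prp4k3, with WUS at 0 in every Col-0 library and CLV3 at 0 in every prp4k3 library. Most of these sums came from STM (means of 5.83 and 2.99 CPM) and KNAT1 (3.05 and 5.69 CPM). The meiosis and germline markers SPO11-1, DMC1 and SPL summed to 2.96 to 3.39 CPM in Col-0 and 2.83 to 3.19 CPM in prp4k3. In the prp4k3 libraries SPO11-1 (8, 1 and 2 counts) and SPL (3, 0 and 1) also had replicate 1 highest and replicate 2 lowest. DMC1 (62, 60 and 64 counts) did not have this order. The part of floral tissue in the AGO5 and AGO9 counts was not tested.

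The split of AGO counts within each library needs no scaling between libraries. AGO1 took 62.5%, 58.9% and 59.9% of the counts of the 9 genes in Col-0 and 44.0%, 45.2% and 49.4% in prp4k3. AGO2 took 3.57%, 4.27% and 5.56% in Col-0 and 17.0%, 21.1% and 15.2% in prp4k3. In both cases the genotypes were apart by more than the Wilson 95% intervals of single libraries, the nearest being 56.2% and 51.4% for AGO1 and 7.02% and 13.8% for AGO2. AGO4 kept 20.2% ± 2.34 and 18.7% ± 1.98, and AGO10 12.6% ± 0.946 and 13.6% ± 0.745. The shares of a library are parts of the same sum, so the AGO1 and AGO2 shifts are not independent. A lower AGO1 share is thus not by itself a fall in AGO1 mRNA. Its log2 fold change was -0.04 with TMM and 0.80 by total counts. The shares are of counts and are not corrected for transcript length, so they do not compare genes with each other.

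**Figure D3:**
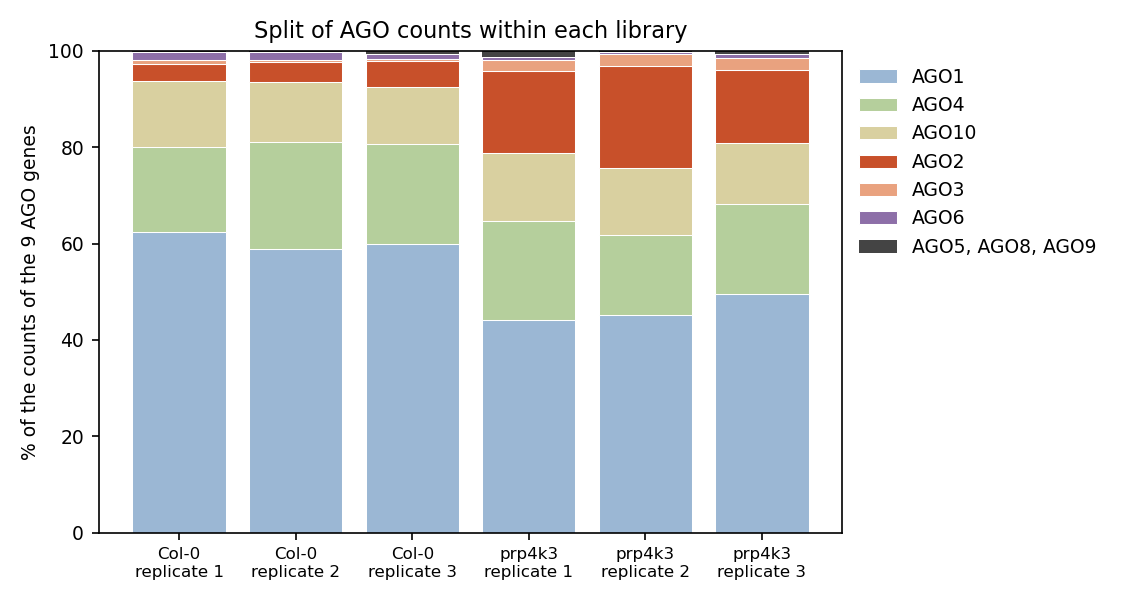
Share of the counts of the 9 AGO genes taken by each gene, in percent, stacked for each of the 6 RNA-seq libraries. The AGO2 share is 3.57% to 5.56% in the Col-0 libraries and 15.2% to 21.1% in the prp4k3 libraries, with a smaller AGO1 share in prp4k3. Shares of a library are parts of the same sum, so a larger share of a gene leaves less for the others.

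Ratios between pairs of members within a library also need no scaling. The log2 ratio of AGO2 to AGO1 was -3.77 ± 0.348 in Col-0 and -1.39 ± 0.302 in prp4k3, a shift of 2.38. AGO3 shifted against AGO1 by 2.62 and AGO10 by 0.49, whereas AGO6 shifted against AGO4 by -0.91, from -3.79 ± 0.427 to -4.69 ± 0.389. The groups did not overlap in these 4 ratios or in AGO5 to AGO1, which makes 5 of the 10 ratios. How often other gene pairs separate was not counted. Each of the 5 had a two-sided exact permutation p of 0.1, the smallest that 3 libraries against 3 allow (0.2 after Benjamini-Hochberg adjustment over 10 ratios). AGO5 to AGO1 rests on 0, 0 and 1 AGO5 counts in Col-0. Its shift was 2.36, or 1.68 with 1 added count in place of 0.5. The ratio of AGO3 to AGO2 overlapped between genotypes (exact permutation p = 0.7). It shifted by 0.25 against an SD of 1.08 in Col-0, and by -0.30 without Col-0 replicate 3, so whether these paralogs changed by different amounts was not detectable.

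Mature miR168 was higher in prp4k3. ath-miR168a-5p, the guide strand that pairs with AGO1 mRNA, stood at 3229, 3301 and 3333 CPM in Col-0 and at 5114, 4534 and 5585 CPM in prp4k3. The groups did not overlap, as in 56.3% of the 215 tested miRNAs. It rose by 0.63 ± 0.17 on the log2 scale (adjusted p = 0.0184 in edgeR's quasi-likelihood test), from 3287 ± 53.2 to 5078 ± 526 CPM, with 37.2% of tested miRNAs called, 18.6% higher and 18.6% lower. The table counts named miRNAs only, so this is a rise relative to other miRNAs, and a change in total miRNA cannot be read from it. Among the 215, ath-miR168a-5p was 38th by mean CPM and 42nd by size of rise.

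The miR168a-5p call depended on the setting. Without prp4k3 replicate 2 it was 0.72 ± 0.13 (adjusted p = 5.28e-05 in edgeR's quasi-likelihood test, with 21.4% of miRNAs called higher). The call did not hold when Col-0 replicate 2 (0.63, adjusted p = 0.0948) or Col-0 replicate 3 (0.65, adjusted p = 0.0748) was left out. By total counts it was 0.72 (adjusted p = 0.0802), with 26% of miRNAs called. In the authors' deposited table its log2 fold change was 0.717 and its adjusted p was 0.339.

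The other strands of the family were also higher. The mature 5p sequences of miR168a and miR168b are known to be identical, and the count of ath-miR168b-5p was 96.2% to 97.8% of that of ath-miR168a-5p in every library, so the rows do not count independent reads. The 3p strands differ and mark the precursors separately. ath-miR168a-3p rose by 0.93 ± 0.19, from 1664 ± 302 to 3174 ± 193 CPM (adjusted p = 0.004 in edgeR's quasi-likelihood test). ath-miR168b-3p rose by 1.17 ± 0.27, from 479 ± 175 to 1082 ± 215 CPM (adjusted p = 0.00799). Both 3p strands kept their call in all 15 alternatives, including total counts and each library left out. Without prp4k3 replicate 2 the rises were 0.93 for ath-miR168a-3p and 1.35 for ath-miR168b-3p. In the authors' deposited table the adjusted p was 0.166 for ath-miR168a-3p and 0.0275 for ath-miR168b-3p. The log2 ratio of ath-miR168a-3p to ath-miR168a-5p was -1.27, -0.95 and -0.78 in Col-0 and -0.79, -0.47 and -0.76 in prp4k3, and the groups overlapped (exact permutation p = 0.2).

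The MIR168 loci themselves were near the limit of detection in RNA-seq. MIR168A (AT4G19395) had 3, 7 and 12 counts in Col-0 and 4, 3 and 7 in prp4k3, and MIR168B (AT5G45307) had 0, 0 and 1 against 4, 1 and 3. For MIR168A the ratio of scaled counts was 0.401 (0.190 to 0.820), and 0.719 (0.340 to 1.47) by total counts. For MIR168B it was 5.05 (0.676 to 224), and 9.04 (1.21 to 401) by total counts. Both loci were below the filter and were not tested.

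miR403, which targets AGO2 mRNA, showed no rise or fall that could be told from its spread. ath-miR403-3p stood at 17885, 16147 and 14057 CPM in Col-0 and at 12780, 24498 and 12213 CPM in prp4k3, where replicate 2 was far above the other libraries. Its log2 fold change was 0.04 ± 0.29 (adjusted p = 0.901 in edgeR's quasi-likelihood test, 95% interval -0.61 to 0.69). Without prp4k3 replicate 2 it fell by 0.34 ± 0.12 (adjusted p = 0.0312), where 21% of miRNAs were called lower, so 1 library decides this value. The 5p strand, ath-miR403-5p, lay at -0.26 ± 0.39 (adjusted p = 0.6). The MIR403 locus (AT2G47275) was counted once in each genotype.

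The balance of miR168 and miR403 within a library was also compared. The log2 ratio of ath-miR168a-5p to ath-miR403-3p was -2.47, -2.29 and -2.08 in Col-0 and -1.32, -2.43 and -1.13 in prp4k3. Replicate 2 of prp4k3 lay within the Col-0 range, so the groups overlapped (exact permutation p = 0.3). The shift was 0.65 with all libraries and 1.05 without that library.

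**Figure D4:**
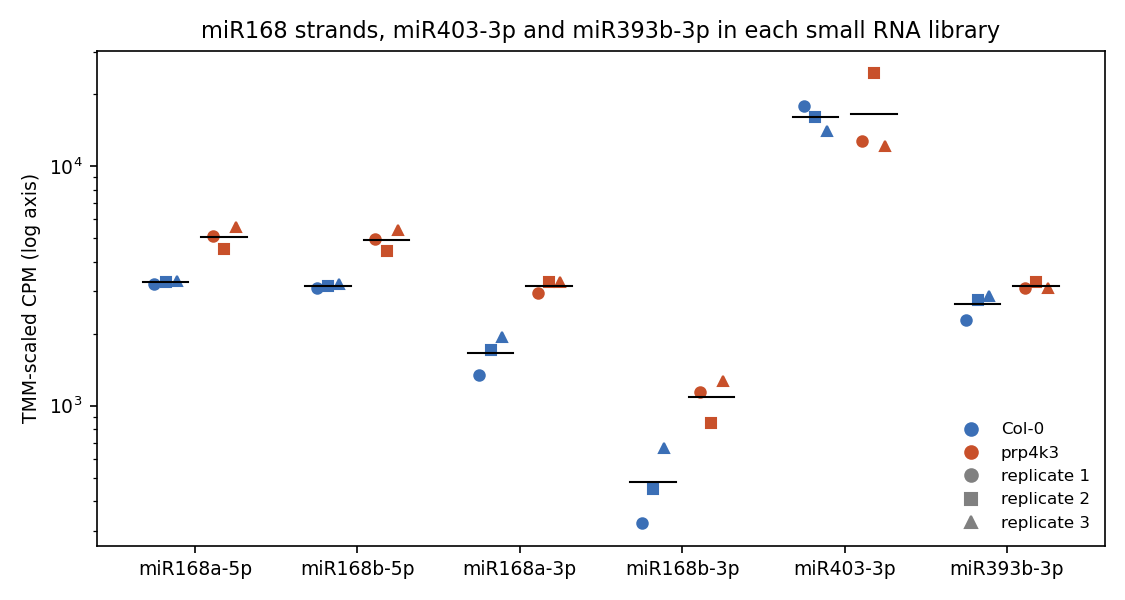
TMM-scaled CPM (log axis) of the miR168 strands, miR403-3p and miR393b-3p in each of the 6 small RNA libraries, Col-0 in blue and prp4k3 in orange, with bars at the group means. All 4 miR168 features lie higher in every prp4k3 library, while miR403-3p in prp4k3 replicate 2, at 24498 CPM, lies far above the other prp4k3 libraries.

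Small RNAs known as cargo of other members were read beside them. ath-miR393b-3p, a passenger strand that AGO2 binds during bacterial infection, stood at 2648 ± 314 CPM in Col-0 and 3159 ± 103 CPM in prp4k3, with a log2 fold change of 0.25 ± 0.17 (adjusted p = 0.262 in edgeR's quasi-likelihood test). Without prp4k3 replicate 2 it lay at 0.25 ± 0.14 (adjusted p = 0.152 in the same test). The 9 features of miR165 and miR166, bound by AGO10, lay between 0.56 and 0.58, and 0 were called (adjusted p from 0.167 to 0.211), beside 37.2% of tested miRNAs. In Col-0 the miR165 rows held 26215 and 26390 counts and the miR166 rows 92689 to 94301, so rows of a family are not independent measures. Without prp4k3 replicate 2 the 9 features lay between 0.05 and 0.15, again with 0 called, beside 42.4% of tested miRNAs. Without prp4k3 replicate 1, by contrast, ath-miR165a-3p was called at 1.15 (adjusted p = 0.0412) and ath-miR166a-3p lay at 1.09 (adjusted p = 0.0663). Their HD-ZIP III targets went both ways, with PHB, a leaf polarity gene, called lower (-0.79 ± 0.13, adjusted p = 0.000459) and HB8, a vascular gene, called higher (0.51 ± 0.13, adjusted p = 0.00798) among 5. That count is near the background of 33.9% higher and 31.9% lower. PHB lay at 0.06 by total counts, where 4 of the 5 were higher and 0 lower, beside 67.1% and 9.81% of all features.

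Transcripts for proteins that make, load and turn over AGO1-bound miRNAs were counted next. The list of 22 genes also holds the MIR168A, MIR168B and MIR403 loci, and only these loci were below the filter. The 19 tested genes all encode proteins, and of these 14 were called higher and 1 lower, beside 33.9% and 31.9% of all features. Their median was 0.83 on the log2 scale, beside 0.02 for all features. By total counts 18 were higher and 0 lower, beside 67.1% and 9.81% of all features. The cytosolic HSP90 chaperones, which assist the loading of small RNA into AGO1, held the strongest changes. HSP90.4 had 47, 58 and 79 counts in Col-0 and 623, 534 and 553 in prp4k3, and rose by 2.55 ± 0.18 (adjusted p = 2.46e-06 in edgeR's quasi-likelihood test). HSP90.1, the heat-inducible copy, rose by 5.49 ± 0.56 and HSP90.2 by 2.82 ± 0.31, although the near-identical HSP90.2, HSP90.3 and HSP90.4 could share reads. SQN, a cyclophilin that works with HSP90 in the loading of AGO1, was the member called lower, at -1.18 ± 0.18 (adjusted p = 0.000258). It lay at -0.34 by total counts (adjusted p = 0.115), and like FBW2 below it was singled out after its values were seen. FBW2, an F-box protein that targets AGO1 for degradation, lay at 0.06 ± 0.13 (adjusted p = 0.691). SE, the zinc-finger protein of miRNA processing that the series' title names, rose by 0.34 ± 0.11 (adjusted p = 0.0233), but did not pass when Col-0 replicate 1, prp4k3 replicate 1 or prp4k3 replicate 3 was left out (adjusted p of 0.0897, 0.0697 and 0.0577).

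Genes that amplify siRNAs for AGO1 and AGO2 were higher in 6 of 8, with 0 lower and a median of 0.81, beside 33.9% of all features called higher. RDR1, an RNA-dependent RNA polymerase of antiviral defence, had 44, 50 and 46 counts in Col-0 and 408, 345 and 424 in prp4k3. It rose by 2.40 ± 0.14 (adjusted p = 9.69e-07 in edgeR's quasi-likelihood test), close in size to AGO2. SGS3, which stabilises RNA for copying, rose by 1.35 ± 0.17 and DCL4, a Dicer of secondary siRNAs, by 0.87 ± 0.12. By total counts all 8 were higher, beside 67.1% of all features.

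Partners of AGO4 and AGO6 in RNA-directed DNA methylation were higher in 11 and lower in 2 of 20, with a median of 0.61, beside 33.9% and 31.9% of all features. By total counts 17 were higher and 0 lower, beside 67.1% and 9.81% of all features. NRPD1 and NRPD2, subunits of the polymerases that make the siRNA precursors and scaffold transcripts, rose by 1.60 ± 0.26 and 1.07 ± 0.14. IDN2, an RNA-binding protein of the pathway, rose by 1.20 ± 0.19. In these libraries the AGO4 difference of 0.23 was below the median of its listed partners. The lower calls numbered 4 without Col-0 replicate 1, 1 without Col-0 replicate 3 and 1 without prp4k3 replicate 3. All lists were chosen with earlier results of these data known, and no list was tested as a set.

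**Figure D5:**
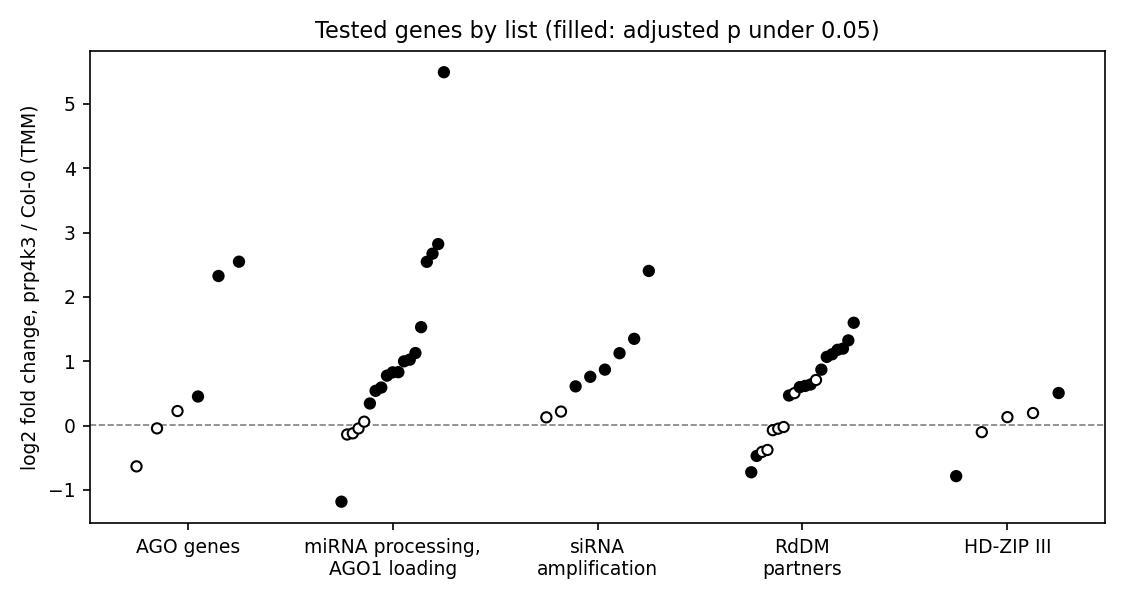
Log2 fold change (TMM, prp4k3 over Col-0) of every tested AGO gene and of the tested genes of 4 pathway lists, sorted within each list, filled where the adjusted p was under 0.05, with a dashed line at the median of all features. Called genes lie mostly above the line in the lists of miRNA processing, siRNA amplification and DNA methylation partners, and on both sides of it for HD-ZIP III genes.

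The genes whose pattern over the 6 RNA-seq libraries was most like that of a member were found among 11747 tested genes with a mean of at least 5 CPM. Likeness was the root mean square difference in log2(CPM + 0.5) after centring each gene on its own mean. For AGO1 the nearest were AT3G23540, AT1G17080 and AT1G12760, with differences of 0.0271, 0.0298 and 0.0306. For AGO2 the nearest were LOX1, a lipoxygenase gene, at 0.0979, AT5G65750 at 0.114 and AT5G44390 at 0.118. These 3 genes had log2 fold changes of 2.23, 2.16 and 2.53 beside 2.32 for AGO2, which follows from how they were picked and is not a separate result.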

How the data were processed

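Leaf RNA-seq and small RNA-seq of Col-0 and prp4k3 were compared, with 3 libraries per group. The deposited tables hold read counts per feature. TopHat2, HTSeq, SAMtools and edgeR are named, per the submitters' processing notes, with roles, versions and genome build not given in the sources used here, so no coordinates are printed. The authors also deposited, per the file headers, a scaled score per library and a scaled mean signal (unused), a linear fold ratio and its log2, and raw and adjusted p-values.

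Tests of the counts used edgeR 4.0.16 under R 4.3.3 (filterByExpr, TMM, quasi-likelihood F-test of genotype, adjustment over all tested features). Standard errors were the coefficient divided by the root of F. Alternatives used DESeq2 1.42.0, other factors, filters, a replicate block and each library left out. Ratios used 0.5 added counts and exact permutation tests. A floor of 3 counts is 0.155 to 0.187 CPM per RNA-seq library and 2.59 to 9.82 CPM per small RNA library before TMM scaling. Intervals and floors cover counting error only.

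Members and lists were chosen with earlier results of these data known. All members were named, and from each pathway list the 3 called genes with the lowest adjusted p, besides SE and the MIR loci. SQN, FBW2 and the marker genes named were added after their values were seen. All 76 listed loci matched the TAIR10.1 gene table, which supplied names and neighbours. Whether counting used strand is not given, so overlapping and antisense genes are uncertain. No label says that the libraries are of separate plants, and the spread behind the p-values may be technical.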

Additional observations from a re-analysis of the deposited data

How the results depend on the processing

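AGO2, AGO3 and AGO10 kept their direction and call in all 13 RNA-seq alternatives, and 3 AGO genes were called higher and 0 lower whichever library was left out. Total-count scaling gave 5 AGO genes higher, with AGO1 at 0.80, AGO6 at 0.20 and PHB at 0.0569 on the log2 scale, and AT3G23540, AT1G17080 and AT1G12760 at 0.80, 0.78 and 0.77. Over all features it gave 12490 higher and 1825 lower. Leaving out each library gave 11042 to 12334 called RNA-seq features, 5733 to 6333 of them higher and 5309 to 6001 lower.

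For ath-miR168a-5p the log2 fold change ranged from 0.63 to 0.89 with each library left out and was 0.72 by total counts (not called). miRNAs called lower numbered 40 with all libraries, 25 by total counts and 24 to 51 with each library left out, and those called in all 58 to 103, with 28 to 52 higher. With each library left out, ath-miR403-3p ranged from -0.34 (without prp4k3 replicate 2) to 0.53 and was also below 0 without Col-0 replicate 3. ath-miR403-5p ranged from -0.39 to 0.19 (without prp4k3 replicate 2). The log2 ratio shift ranged from -0.30 (without Col-0 replicate 3) to 0.78 for AGO3 to AGO2 and from -0.27 (without prp4k3 replicate 1) to 1.04 for AGO9 to AGO4. The cause of these changes was not tested. With a replicate block ath-miR168a-5p was 0.62 (adjusted p = 0.0673 in edgeR's quasi-likelihood test) and ath-miR403-3p -0.0306, while the AGO genes gave 3 calls. To look for pairing, the log2 CPM of each feature was centred on its mean within each genotype. These deviations correlated between same-numbered Col-0 and prp4k3 libraries at -0.05, 0.06 and -0.05 in RNA-seq. In small RNA the values were -0.25, -0.01 and -0.08, so the numbers were not taken as pairs.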

Other observations

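AGO2 and AGO3 lie next to each other in the TAIR10.1 gene order, and no tested gene listed around them was called higher with TMM scaling. These neighbours were chosen after the AGO values were seen. On one side, ZIP10 and AT1G31270 had 0 counts in every library, so they can show neither a rise nor its absence. On the other, AT1G31300 fell by 1.18 ± 0.11 (adjusted p = 1.16e-05 in edgeR's quasi-likelihood test) and AT1G31310 fell by 2.09 ± 0.21 (adjusted p = 2.32e-05), whereas LBD4 lay at 0.04 ± 0.23. By total counts these 3 genes lay at -0.34, -1.25 and 0.88 (adjusted p = 0.0192, 0.000433 and 0.00509 in edgeR's quasi-likelihood test). LBD4 was thus called higher on that scale, as were 67.1% of all features.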
